A study of Mus musculus with 2 samples.

Results

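Hdc, Tph1, Ddc and Slc18a2, the genes through which a cell makes histamine and serotonin and packs them into granules, were followed cell by cell in the CD31+CD45+c-Kit+CD41- fraction of cultured mouse embryo and yolk sac tissue. They were chosen by name, and all 4 were among the 11691 genes of the UMI table. The tissue came from C57/BL6 concepti at E8.5 with 5 to 7 somite pairs, dissected into intraembryonic tissue (embryo explants, Em-Ex) and yolk sac (YS-Ex). Explants of both kinds grew at the air-liquid interface until the sort on day 10 with 20% FCS and with SCF, IL-3 and FLT3 ligand at 100 ng/ml each, so no group was without these cytokines. The sorted fraction of each kind went into 1 droplet library, so tissue of origin and library cannot be told apart and no spread between samples can be had. The gate required c-Kit on the surface, and the cells had formed in culture, which limits both libraries as a model of the tissue in the conceptus.

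Mast cells and basophils hold histamine in their granules, and rodent mast cells hold serotonin as well. Hdc encodes histidine decarboxylase, which makes histamine from histidine in a single step. Serotonin needs a pair of steps: Tph1 encodes the tryptophan hydroxylase of peripheral tissues, which makes 5-hydroxytryptophan and limits the rate, and Ddc encodes aromatic L-amino acid decarboxylase, which turns that product into serotonin. Slc18a2 encodes the vesicular monoamine transporter VMAT2, which loads both amines into granules in exchange for protons. Cpa3, the mast cell carboxypeptidase, served as the measure against which each gene was set in every cell.

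The 250 bases upstream of the annotated start of each gene are shown because all of these genes were higher in high-Cpa3 cells than in the other cells. The sequences are those of RefSeq on GRCm38.p6, written 5′ to 3′ along the gene. Capitals mark the letters GATAA or GATAG, the core bound by GATA factors, searched on both strands, so that TTATC and CTATC are marked too.
Hdc (chr2:126618679-126618928, minus strand): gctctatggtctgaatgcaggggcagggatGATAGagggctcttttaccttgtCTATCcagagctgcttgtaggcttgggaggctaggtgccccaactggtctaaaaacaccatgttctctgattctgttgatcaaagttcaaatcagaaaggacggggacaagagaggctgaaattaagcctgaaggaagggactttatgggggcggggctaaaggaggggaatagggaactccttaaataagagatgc
Tph1 (chr7:46672538-46672787, minus strand): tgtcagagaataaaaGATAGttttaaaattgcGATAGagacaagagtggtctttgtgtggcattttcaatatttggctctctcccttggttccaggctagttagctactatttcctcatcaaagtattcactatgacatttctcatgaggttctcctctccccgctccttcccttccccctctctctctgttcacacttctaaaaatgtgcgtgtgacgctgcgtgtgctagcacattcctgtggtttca
Ddc (chr11:11898145-11898394, minus strand): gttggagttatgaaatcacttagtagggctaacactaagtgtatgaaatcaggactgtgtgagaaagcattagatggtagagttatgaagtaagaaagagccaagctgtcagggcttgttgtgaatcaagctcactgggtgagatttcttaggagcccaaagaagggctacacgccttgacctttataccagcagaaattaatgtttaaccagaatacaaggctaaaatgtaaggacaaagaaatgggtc
Slc18a2 (chr19:59260628-59260877, plus strand): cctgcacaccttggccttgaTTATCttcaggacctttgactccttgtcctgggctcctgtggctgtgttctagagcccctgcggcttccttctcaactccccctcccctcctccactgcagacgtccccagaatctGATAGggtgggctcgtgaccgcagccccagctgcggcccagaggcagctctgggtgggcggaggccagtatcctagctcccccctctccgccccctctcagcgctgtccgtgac
Cpa3 (chr3:20242182-20242431, minus strand): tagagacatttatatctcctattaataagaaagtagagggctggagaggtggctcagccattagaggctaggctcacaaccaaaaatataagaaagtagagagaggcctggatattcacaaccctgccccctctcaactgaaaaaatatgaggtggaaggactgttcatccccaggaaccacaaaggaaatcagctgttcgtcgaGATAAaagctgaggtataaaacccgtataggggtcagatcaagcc
The windows of Hdc, Tph1 and Slc18a2 each held 2 matches, that of Cpa3 held 1 and that of Ddc held none of these letters. Of 32851 windows of this length upstream of annotated starts, 37.4% held a match, so the letters are common and their presence is a description only. The RefSeq start of Hdc (base 126618678) lies inside the span that GENCODE gives for the gene, so its window is upstream by RefSeq only. RefSeq lists another start for Tph1 and another for Ddc, whose windows held 0 matches. The E-box letters CATGTG or CACGTG, of the kind bound by MITF, were in none of these windows and in 17.6% of all windows.

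On GRCm38 (GENCODE vM21), Hdc spans bases 126593667 to 126619299 of chromosome 2, Tph1 46644641 to 46672537 of chromosome 7, Ddc 11814101 to 11898144 of chromosome 11 and Slc18a2 59260896 to 59296012 of chromosome 19. Hdc and Tph1 overlapped no other annotated gene. Within Ddc lies the antisense gene 1700042O10Rik, 17199 bases on the opposite strand, which has its own row in the table. The first 524 bases of Slc18a2 are overlapped by the antisense gene Gm29261, which has no row. The sources used here do not say whether the counting used strand. Whether reads of Ddc and 1700042O10Rik from the shared stretch were kept apart is therefore not known here. That stretch, bases 11868123 to 11885321, reaches neither end of Ddc.

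After cells outside 1000 to 5000 genes or above 5% mitochondrial UMIs were left out, 3071 of 3504 Em-Ex barcodes and 2087 of 3037 YS-Ex barcodes remained, with 42752370 and 27031627 UMIs and medians of 12341 and 11729 UMIs per cell. The 2 libraries shared 35 barcodes, of which 33 and 32 were kept. A cell was called high-Cpa3 when Cpa3 reached 2000 UMIs per 1000000 UMIs of that cell (CPM). This held for 2430 Em-Ex cells (79.1%) and 2018 YS-Ex cells (96.7%), while 71 and 31 cells lay within 500 CPM of the limit. All 14 mast cell markers searched for had a row of UMI counts. Their summed level was 43321 and 49031 CPM in high-Cpa3 cells of Em-Ex and YS-Ex, against 2789 and 7408 CPM in the other cells. The list holds Cpa3 itself, at 11942 and 16939 CPM against 290 and 586 CPM, so part of this contrast was set by the split.

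All 4 genes were carried almost entirely by high-Cpa3 cells. Hdc stood at 2770 CPM (95% Poisson interval 2751 to 2789) in high-Cpa3 cells of Em-Ex and at 176 CPM (169 to 184) in the remaining 641 cells. In YS-Ex the corresponding Hdc levels were 2047 CPM (2030 to 2064) and 621 CPM (571 to 673), the latter over 69 cells. These intervals, like all that follow, cover counting error only.

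Tph1 stood at 1261 CPM (1248 to 1273) in high-Cpa3 cells of Em-Ex and 98.9 CPM in the other Em-Ex cells, and at 1464 CPM (1450 to 1479) and 228 CPM in YS-Ex. Ddc, the second enzyme of the serotonin route, was counted at 61.1 CPM (58.3 to 63.9) against 4.73 CPM in Em-Ex and at 37.8 CPM (35.5 to 40.3) against 6.35 CPM in YS-Ex. Slc18a2 stood at 98.0 CPM (94.5 to 102) against 9.04 CPM in Em-Ex and at 163.9 CPM (159.1 to 169) against 42.4 CPM in YS-Ex. In each library the high-Cpa3 cells were the higher group for every gene, and only the intervals of Ddc in YS-Ex came from fewer than 10 UMIs on the low side (6 UMIs).

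Cells differed widely in the 2 genes counted most deeply per cell. Among high-Cpa3 cells of Em-Ex, Hdc ran from 0 to 311 UMIs with a median of 21, and its 10th and 90th percentiles were 292 and 5952 CPM. In YS-Ex Hdc ran from 0 to 301 UMIs with a median of 18 and percentiles of 346 and 4701 CPM. The 10% of cells with the most Hdc held 36.2% of the Hdc UMIs in Em-Ex and 35.7% in YS-Ex.

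Tph1 ran from 0 to 99 UMIs (median 13) in high-Cpa3 cells of Em-Ex and from 0 to 160 (median 14) in those of YS-Ex. When each cell was reduced at random to 3000 UMIs, the variance of Hdc over high-Cpa3 cells was 7.71 times its mean in Em-Ex and 8.08 times in YS-Ex, where counting alone gives a ratio of 1. The same ratio was 3.26 and 3.07 for Tph1. For Ddc it was 1.13 and 1.22, at means of 0.172 and 0.139 UMIs per cell. For Slc18a2 it was 1.05 and 1.10, at means of 0.319 and 0.532 UMIs. At means this low the ratio lies near 1 even where cells differ, so it is not set against those of Hdc and Tph1. The highest counts in any high-Cpa3 cell were 9 UMIs for Ddc and 11 for Slc18a2.

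Shares of cells with a UMI were read at this common depth. Hdc had a UMI in 90.5% (89.3 to 91.6) of high-Cpa3 cells of Em-Ex and 90.7% (89.4 to 92.0) of those of YS-Ex, Tph1 in 88.1% and 92.5%, Ddc in 14.9% and 11.7%, and Slc18a2 in 26.5% and 39.7%. In the other cells of Em-Ex the shares were 21.1%, 15.8%, 2.34% and 3.28% for the same genes, and in those of YS-Ex 40.6%, 40.6%, 4.35% and 18.8%. No cell was left out by the thinning. Without thinning, Ddc was seen in 40.1% and 28.2% of high-Cpa3 cells and Slc18a2 in 64.3% and 80.9%, at median depths of 11342 and 11750 UMIs. In the other cells, with medians of 18290 and 11142 UMIs, the unthinned shares were 6.55% and 7.25% for Ddc and 11.9% and 27.5% for Slc18a2.

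Hdc, Tph1, Ddc and Slc18a2 stepped up together between the lowest ranges of Cpa3, and above that step they parted. In Em-Ex, Hdc was 41.3 CPM (37.6 to 45.4) in the 538 cells with Cpa3 under 500 CPM, 1193 CPM (1136 to 1251) in the 103 cells at 500 to 2000 CPM, and 2869 CPM (2839 to 2899) in the 882 cells at 2000 to 8000 CPM. From the lowest range to 2000 to 8000 CPM this was a rise of 69.4-fold (63.2 to 76.4) for Hdc, 52.3-fold (45.5 to 60.4) for Tph1, 32.2-fold (20.7 to 53.0) for Ddc and 21.4-fold (15.6 to 30.1) for Slc18a2. The steps were thus large for every gene, and the low end is taken up with the clusters of low Cpa3.

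In YS-Ex the same step was 11.9-fold (9.77 to 14.6) for Hdc, 24.9-fold (17.1 to 37.9) for Tph1, 12.4-fold (3.38 to 103) for Ddc and 8.34-fold (4.62 to 16.8) for Slc18a2. Only 40 YS-Ex cells had Cpa3 under 500 CPM, and 3 of them held Hdc at 500 CPM or more. Both ends of the Hdc step differed from Em-Ex, at 156.5 CPM (127.5 to 190.1) in the lowest range and 1861 CPM (1819 to 1903) at 2000 to 8000 CPM of Cpa3.

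Above 2000 CPM of Cpa3, Hdc and Ddc were nearly level while Tph1 was higher in each further range. In Em-Ex, Tph1 was 982, 1307 and 1656 CPM in cells with Cpa3 at 2000 to 8000, 8000 to 16000 and over 16000 CPM, and in YS-Ex 1043, 1441 and 1618 CPM. The ratio of the highest to the lowest of these ranges was 1.69 (1.64 to 1.73) and 1.55. Each step was thus beyond counting error in both libraries.

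Slc18a2 was 80.4, 101 and 123 CPM over the same ranges in Em-Ex, a ratio of 1.53, and 142, 152 and 179.8 CPM in YS-Ex, which gives 1.27 (1.15 to 1.39). The first YS-Ex step of Slc18a2 lay within its intervals (131 to 154 and 145 to 160.4 CPM). Hdc gave a ratio of 0.915 (0.899 to 0.931) in Em-Ex and 1.17 (1.14 to 1.20) in YS-Ex, so that its small slope had opposite signs. Ddc gave 1.03 (0.917 to 1.16) and 0.996 (0.829 to 1.20), intervals that include 1.

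**Figure D1:**
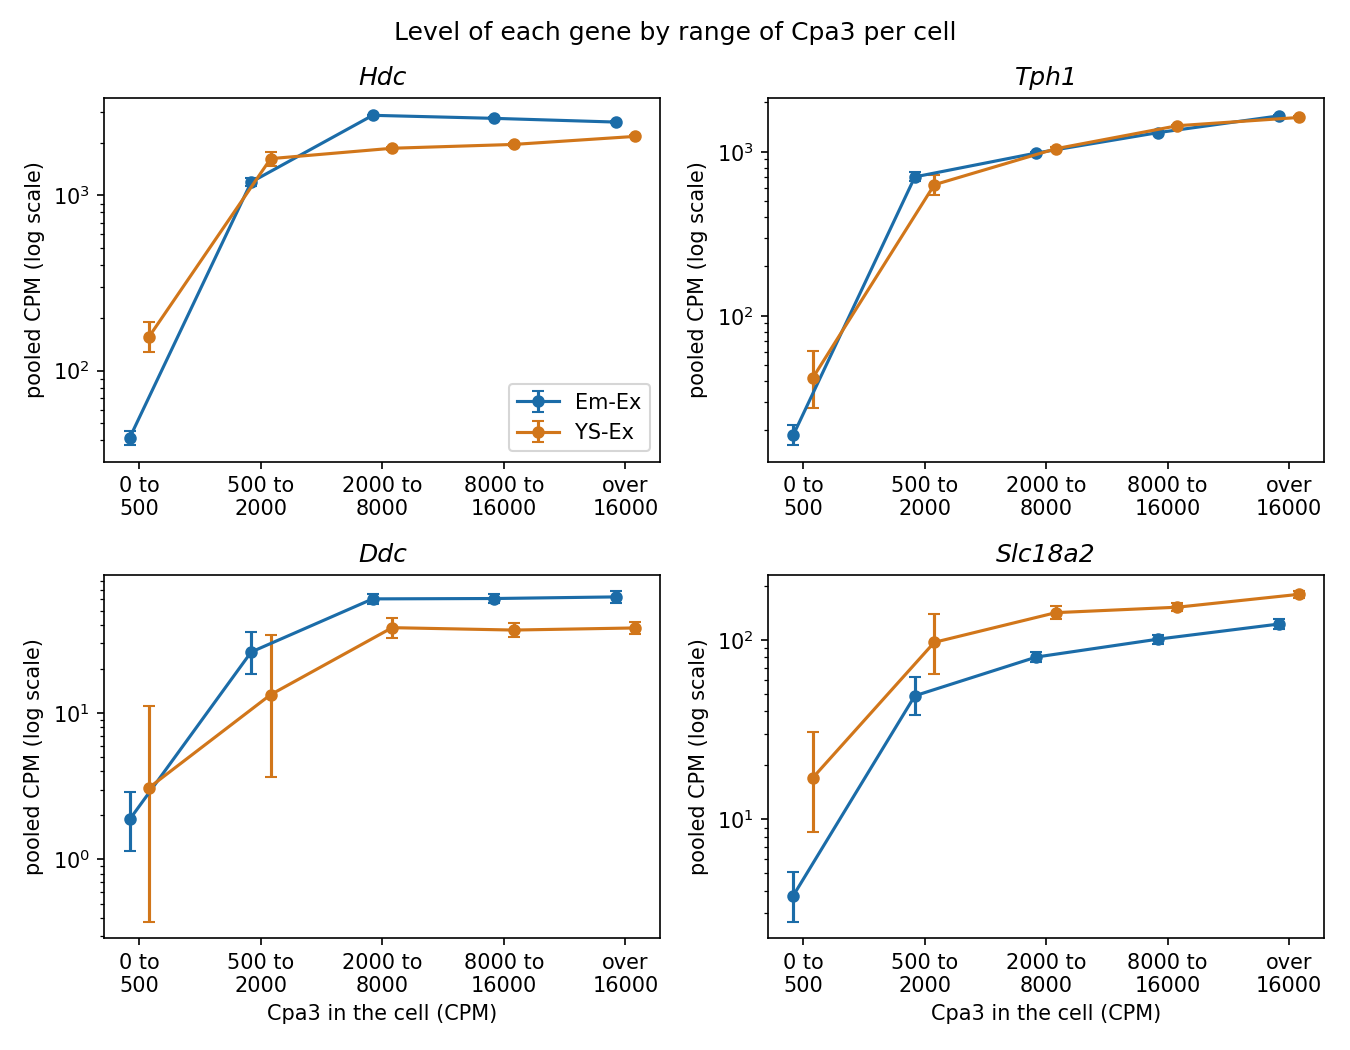
Pooled level of each gene (CPM, log scale) in cells grouped by their own Cpa3 level, with Em-Ex in blue, YS-Ex in orange and bars for the 95% Poisson interval. All 4 genes climb from the lowest range to the middle range, after which Tph1 keeps climbing, Slc18a2 climbs less and Hdc and Ddc stay nearly level.

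The relation to Cpa3 was also read as a rank correlation over cells. Spearman's rho with Cpa3 over all 3071 Em-Ex cells was 0.44 for Hdc, 0.56 for Tph1, 0.20 for Ddc and 0.38 for Slc18a2, and within the 2430 high-Cpa3 cells 0.00075, 0.23, -0.0053 and 0.13. Over all 2087 YS-Ex cells rho was 0.18, 0.19, 0.03 and 0.16, and within the 2018 high-Cpa3 cells 0.14, 0.13, -0.00034 and 0.12. All these cells share a library and each pair of values shares the cell's depth, so the coefficients are descriptions. At 3000 UMIs per cell rho between Slc18a2 and Cpa3 was 0.07 and 0.01 within high-Cpa3 cells, and no relation is read from it.

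The libraries differed in opposite directions for different genes of the set. Over all cells Hdc was nearly equal, at 2039 CPM (2025 to 2052) for Em-Ex against 1997 CPM (1980 to 2014) for YS-Ex. Tph1 was 933 CPM (924 to 942) for Em-Ex against 1421 CPM (1407 to 1435) for YS-Ex, 1.52-fold higher in YS-Ex. Ddc was 45.2 CPM (43.2 to 47.2) for Em-Ex against 36.7 CPM (34.5 to 39.1) for YS-Ex, 1.23-fold (1.14 to 1.33) higher in Em-Ex.

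Slc18a2 differed most, at 72.9 CPM (70.4 to 75.5) for Em-Ex against 159.7 CPM (155 to 165) for YS-Ex, a ratio (Em-Ex over YS-Ex) of 0.457 (0.436 to 0.478). Cpa3 itself was 8656 CPM in Em-Ex against 16367 in YS-Ex, 1.89-fold higher in YS-Ex. Slc18a2 was the only 1 of the 4 genes past 2-fold, in a table where 10.3% of 11146 genes were at least 2-fold higher in YS-Ex and 8.35% at least 2-fold higher in Em-Ex, with a median log2 ratio (Em-Ex over YS-Ex) of -0.02 over all of them. There was 1 library per group, so none of these differences could be tested. In such pooled sums fewer cells that express a gene and less RNA per cell cannot be told apart.

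Taken within high-Cpa3 cells alone, all the ratios moved toward Em-Ex. Hdc was then 1.35-fold (1.34 to 1.37) higher in Em-Ex and Ddc 1.61-fold (1.49 to 1.74) higher in Em-Ex, while Tph1 was 1.16-fold (1.15 to 1.18) and Slc18a2 1.67-fold (1.60 to 1.75) higher in YS-Ex. None of the 4 was past 2-fold, where 11.7% of 10674 genes were higher in YS-Ex and 2.00% higher in Em-Ex by that much, with a median log2 ratio of -0.10. The enzymes of histamine synthesis and of the last step to serotonin thus stood higher in Em-Ex, and the hydroxylase and the transporter higher in YS-Ex.

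Signs of RNA quality moved with the libraries as well. Malat1, a nuclear RNA, was 13540 CPM in high-Cpa3 cells of Em-Ex and 26196 CPM in those of YS-Ex, and the median mitochondrial share was 3.17% and 3.60%. When high-Cpa3 cells of both libraries were put into 4 equal bins by their Malat1 level, Slc18a2 was higher in YS-Ex in each bin, with ratios (Em-Ex over YS-Ex) of 0.738, 0.819, 0.786 and 0.603 from the lowest bin to the highest. In 3 of the 4 bins the difference was thus smaller than the ratio of 0.598 over all high-Cpa3 cells by more than the counting interval.

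In the same bins Hdc was higher in Em-Ex by 2.04, 1.90, 1.43 and 1.13-fold and Ddc by 1.42, 1.82, 1.69 and 1.24-fold, the last with an interval of 0.970 to 1.58. Tph1 gave ratios of 0.906, 1.05, 0.918 and 1.01, which are on both sides of 1. In bins by mitochondrial share, the ratio of Slc18a2 was 0.582 to 0.679, that of Hdc 1.10 to 1.41, that of Ddc 1.27 to 1.60 and that of Tph1 0.713 to 0.973.

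Depth per cell moved with the ratios as well. In the bin of high-Cpa3 cells with the fewest UMIs (3353 to 8312) the direction was reversed, with Hdc at 2308 CPM for Em-Ex against 2631 CPM for YS-Ex, a ratio of 0.877 (0.851 to 0.904). In the bin with the most UMIs (16245 to 36218) the ratio was 1.70 (1.67 to 1.73). Ddc went from 1.10 (0.878 to 1.39) to 2.21 (1.95 to 2.51) between these bins and Tph1 from 0.984 (0.948 to 1.02) to 0.710 (0.693 to 0.727), while Slc18a2 was 0.541 to 0.641 over the 4 bins. The higher Hdc of Em-Ex was thus that of the 3 bins with more UMIs, and the part of depth in it was not tested. All these bins were added after the values had been seen.

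The cells of both libraries fell into 12 clusters, 8 of them with high Cpa3, numbered by size and built without the 4 genes and without Cpa3, after the libraries had been aligned by mutual nearest neighbors. Of the 14 mast cell markers, 12 reached 20 CPM in cluster 10 and 8 in each of clusters 7, 11 and 12 (low Cpa3). Clusters 1 to 6, 8 and 9 had pooled Cpa3 levels of 9046 to 21846 CPM, with 13 or 14 markers reaching 20 CPM. They are named here by number and leading genes. Between them and the clusters with low Cpa3 (7, 10, 11 and 12), Hdc was 29.9-fold (28.1 to 31.8) higher in Em-Ex and 32.0-fold (22.8 to 46.5) in YS-Ex, and Tph1 31.0-fold in Em-Ex, while YS-Ex had 1448 against 48.2 CPM of Tph1. Ddc was 20.8-fold and 19.4-fold higher and Slc18a2 19.4-fold and 28.1-fold, of which the YS-Ex values rest on 1 UMI of Ddc (interval 3.47 to 767) and 3 UMIs of Slc18a2 (9.62 to 136) in the low clusters.

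Within the high-Cpa3 clusters each gene had its own order. Hdc was highest in cluster 8, led by Calca, Mrgprb1, Tgm2 and Mrgprb2, at 4734 CPM (4654 to 4815) for Em-Ex against 5614 CPM (5510 to 5719) for YS-Ex. Mrgprb2 encodes a receptor of connective tissue mast cells for basic secretagogues. The next cluster stood at 3632 CPM in Em-Ex (cluster 4) and 2166 CPM in YS-Ex (cluster 2), so the gap to cluster 8 was far beyond counting error in both libraries.

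At the other end, Hdc was lowest in cluster 9 of Em-Ex at 1733 CPM (1662 to 1806), and in cluster 1 of YS-Ex, which was led by genes of DNA replication and mitosis such as Mki67, Esco2 and Aspm, at 946 CPM (919 to 974). In Em-Ex the same cluster 1 held Hdc at 2132 CPM (2104 to 2160). Neighbours in the order overlapped within their intervals for clusters 6 and 2 and for clusters 3 and 1 in Em-Ex, and for clusters 2 and 4, 3 and 9, and 9 and 6 in YS-Ex.

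Tph1 was highest in cluster 9, led by Mgarp, Nkd1, H2-Ab1, Ankrd37 and Plod2, at 2421 CPM (2337 to 2508) for Em-Ex against 1902 CPM (1789 to 2019) for YS-Ex. Hdc was at the bottom of its own order in this cluster in Em-Ex. In YS-Ex the Tph1 level of cluster 9 overlapped that of cluster 3 (1849 CPM). Tph1 was lowest in cluster 6 (931 CPM) and cluster 1 (957 CPM) of Em-Ex, which overlapped, and in cluster 1 of YS-Ex (1063 CPM).

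Ddc was highest in cluster 4, led by Gm9758, Hapln1, Kdelr3, Tpsab1 and Mcpt8, at 86.1 CPM (79.3 to 93.3) for Em-Ex against 88.7 CPM (76.4 to 102) for YS-Ex. It was lowest in cluster 6 (Cd3g, Ccdc180, Itga4), at 23.0 CPM (17.6 to 29.4) and 9.24 CPM (6.79 to 12.3), and next lowest in cluster 3 (Layn, Ccr2, Cpb1), at 40.2 and 18.5 CPM. These 3 clusters held the same places at the ends of the order in both libraries. The interval of cluster 3 in Em-Ex overlapped those of clusters 9 (50.9 CPM) and 5 (51.1 CPM). The interval of cluster 4 overlapped that of the next cluster in each library (cluster 2 of Em-Ex, 69.7 CPM, and cluster 8 of YS-Ex, 66.0 CPM).

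Slc18a2 was highest in clusters 8 and 2 of both libraries (Em-Ex 138 and 132 CPM, YS-Ex 222 and 221.7 CPM) and lowest in clusters 1 and 6 (76.1 and 77.4 CPM, 112 and 122 CPM). The members of each of these pairs overlapped, and cluster 2 also overlapped the next cluster, 3 in Em-Ex (118 CPM) and 5 in YS-Ex (193 CPM). Cluster 2 was led by Pigz, G0s2, Mrgprb2 and Fcer1a and had the highest pooled Cpa3.

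**Figure D2:**
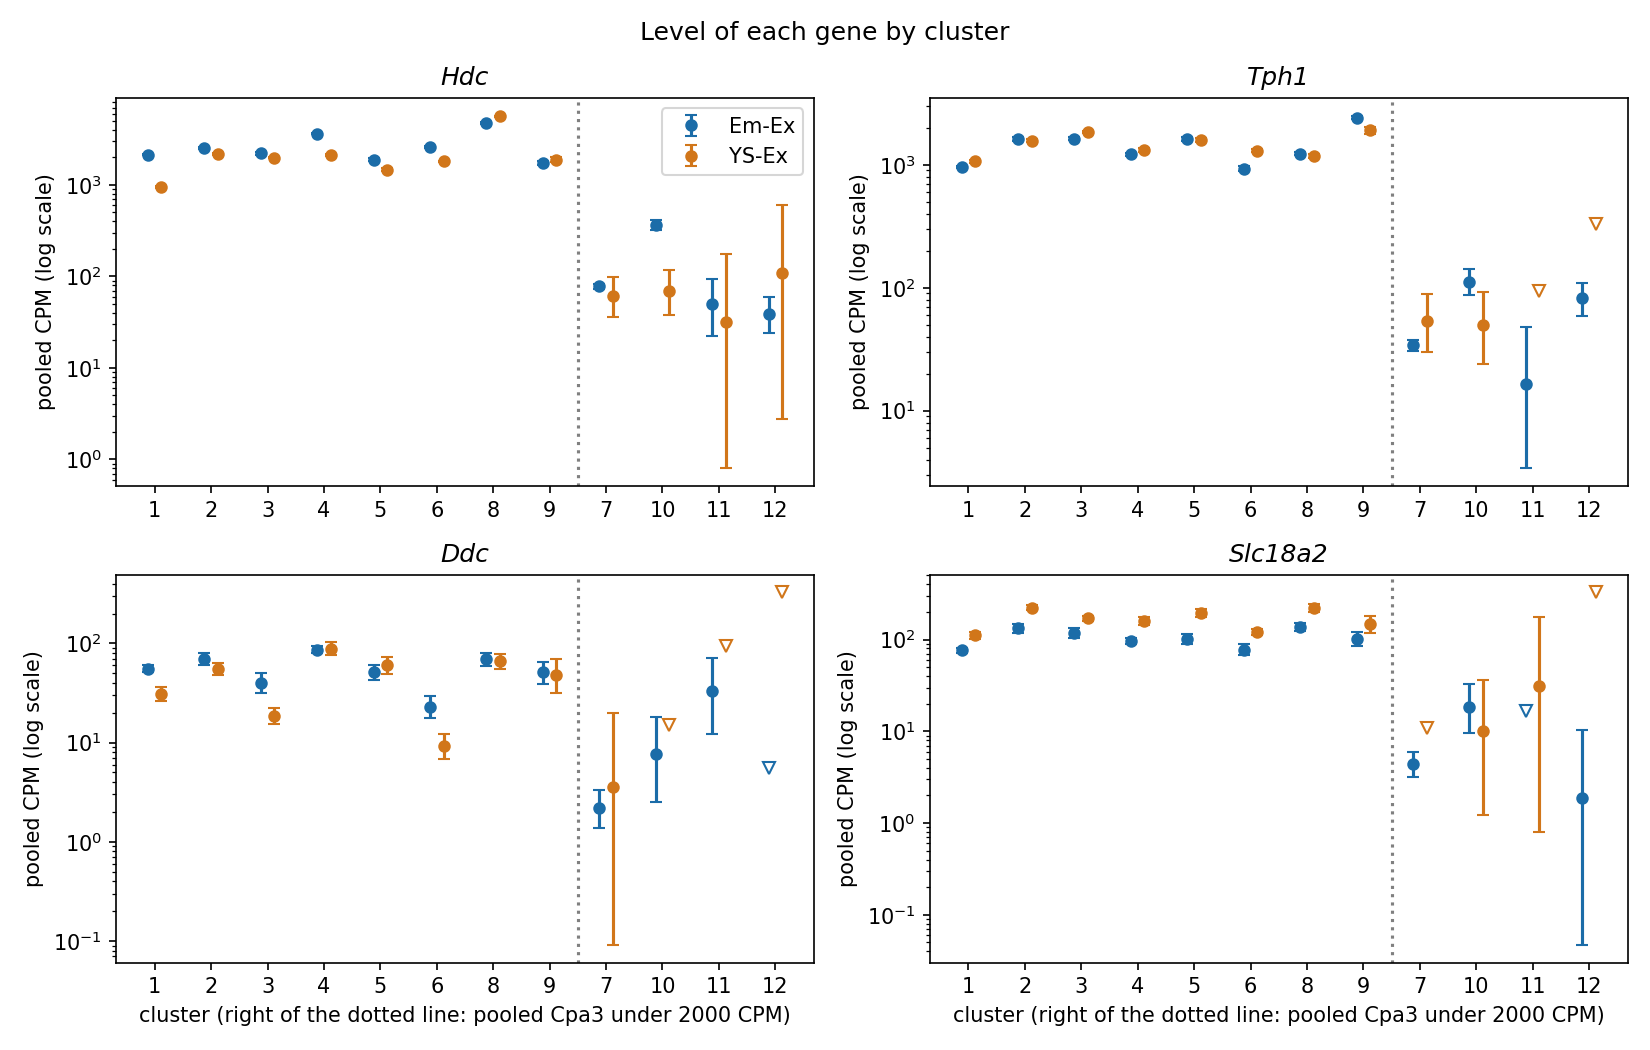
Pooled level of each gene (CPM, log scale) in each cluster, with Em-Ex in blue, YS-Ex in orange and bars for the 95% Poisson interval. Open triangles mark the level of 3 UMIs where none was counted. The 8 high-Cpa3 clusters lie left of the dotted line, where Hdc peaks in cluster 8, Tph1 in cluster 9 and Ddc in cluster 4.

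The libraries also differed in how their cells were spread over the clusters, and the library ratios were therefore taken inside each cluster. Cluster 4 held 16.0% of the Em-Ex library and 6.76% of the YS-Ex library, and cluster 3 held 6.32% and 22.6%. Slc18a2 was higher in YS-Ex in 8 of 8 high-Cpa3 clusters, in each beyond its counting interval, by 1.44-fold (cluster 9) to 1.90-fold (cluster 5). Slc18a2 thus had 1 direction in every cluster and bin of these cells.

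Hdc was higher in Em-Ex in 6 clusters and higher in YS-Ex in 2, all beyond the interval. The widest ratio for Hdc was in cluster 1, 2.25-fold (2.18 to 2.33) higher in Em-Ex, and the opposite direction was seen in cluster 8, 1.19-fold (1.16 to 1.22) higher in YS-Ex, and in cluster 9, 1.09-fold (1.01 to 1.17). Ddc was higher in Em-Ex in 6 clusters, 4 of them beyond the interval, with the widest ratios in clusters 6 (2.49, 1.67 to 3.71) and 3 (2.17, 1.61 to 2.92). In cluster 4, where Ddc was highest, its ratio was 0.971 (0.822 to 1.15).

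Tph1 was higher in YS-Ex in 4 clusters and in Em-Ex in 4, of which 4 and 1 were beyond the interval. With equal weight for each cluster its mean log2 ratio was -0.06, against -0.22 over high-Cpa3 cells. The Tph1 difference between the libraries thus depended on which clusters the cells were drawn from.

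**Figure D3:**
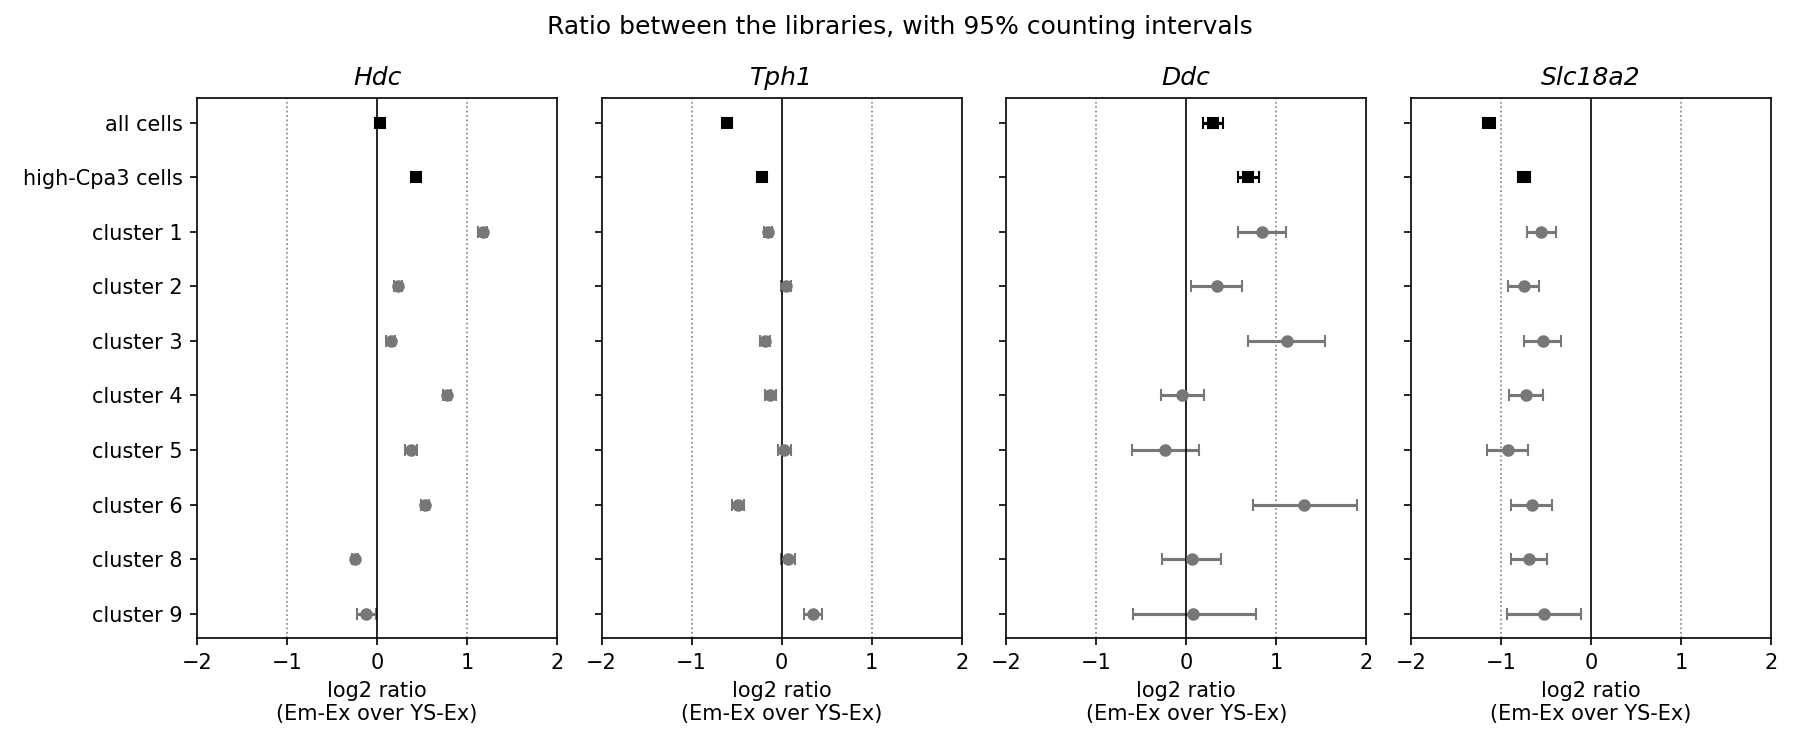
Log2 ratio of Em-Ex over YS-Ex for each gene over all cells and high-Cpa3 cells (black squares) and within each of the 8 high-Cpa3 clusters (grey circles), with bars for the 95% counting interval and dotted lines at 2-fold. Slc18a2 lies left of 0 in every row, Hdc and Ddc lie mostly right of 0, and Tph1 lies on both sides.

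Hdc and Tph1 had a weak inverse relation over the high-Cpa3 cells of Em-Ex. Within its high-Cpa3 cells rho between them was -0.22 (-0.18 after thinning to 3000 UMIs), against 0.01 in YS-Ex. In the bin, of 4 equal ones, of Em-Ex high-Cpa3 cells with the least Hdc, up to 852 CPM, Tph1 was 1600 CPM (1571 to 1629), and it was 1391, 1060 and 1044 CPM in the further bins. In YS-Ex the order was not of this kind, with Tph1 at 1345, 1460, 1552 and 1514 CPM from the lowest bin to the highest.

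Ddc was higher in cells with more Hdc in both libraries, at 39.7, 57.6, 67.8 and 76.2 CPM over the 4 bins of Em-Ex and 30.8, 37.1, 37.8 and 46.9 CPM over those of YS-Ex. Slc18a2 was 76.2, 94.0, 111 and 108 CPM in Em-Ex against 135, 156, 182 and 187 CPM in YS-Ex. For both genes the interval of the lowest bin lay below that of the highest in each library. In YS-Ex the same held for Tph1 (1318 to 1372 CPM in the lowest bin and 1483 to 1546 CPM in the highest), so Tph1 ran against Hdc in Em-Ex and not in YS-Ex, a difference that was not tested. Depth moved with this pattern. From the bin with the fewest UMIs to that with the most, Hdc of Em-Ex was 2308, 2490, 2912 and 2965 CPM and Tph1 1625, 1496, 1345 and 977 CPM, while in YS-Ex Hdc was 2631, 2261, 2129 and 1741 CPM and Tph1 1651, 1540, 1471 and 1376 CPM. The part of depth in the relation of Hdc and Tph1 was not tested. Median depth over the bins of Hdc was 10416 to 12942 UMIs in Em-Ex and 10837 to 12261 in YS-Ex.

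**Figure D4:**
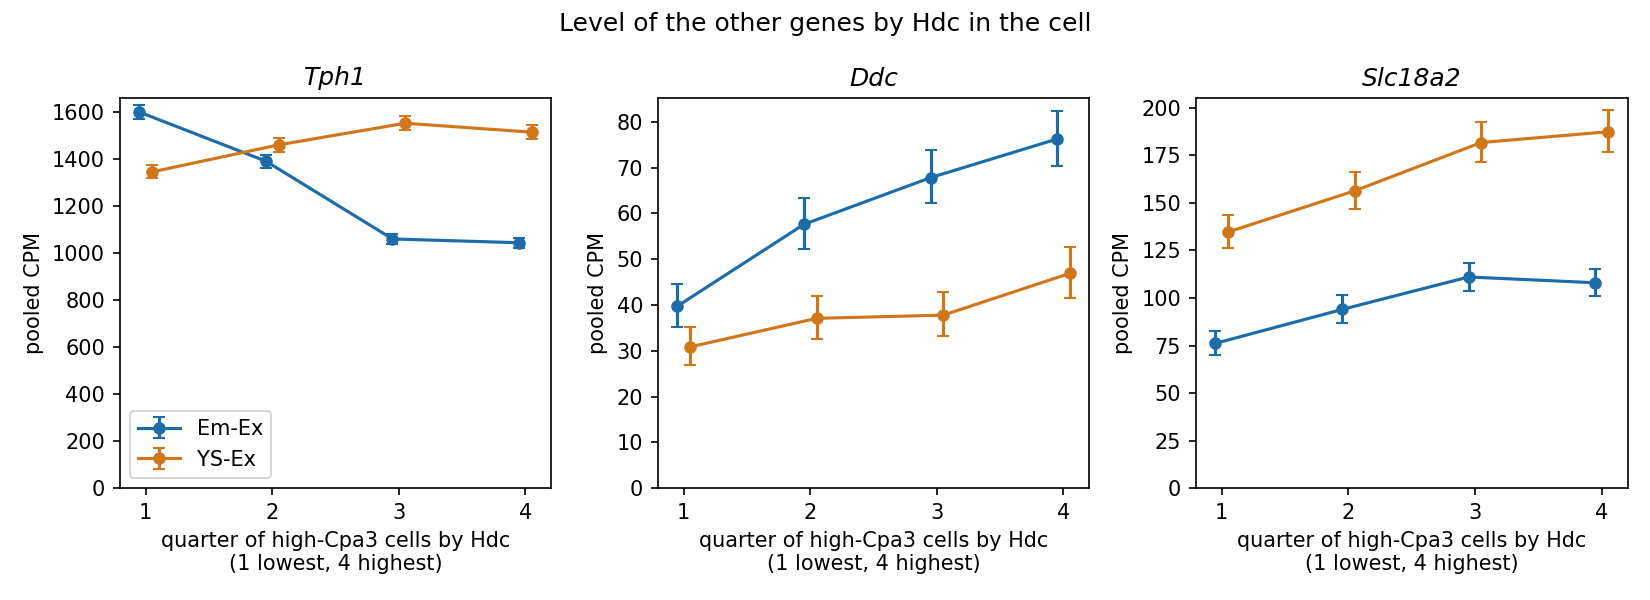
Pooled level (CPM) of Tph1, Ddc and Slc18a2 in high-Cpa3 cells put into 4 equal bins by their own Hdc level, with Em-Ex in blue, YS-Ex in orange and bars for the 95% Poisson interval. Tph1 falls from 1600 to 1044 CPM across the Em-Ex bins, while Ddc and Slc18a2 are higher in the top bin than in the lowest in both libraries.

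Co-detection in the same cell was read over all cells and within high-Cpa3 cells. At 3000 UMIs per cell, Hdc and Tph1 were both seen in 64.8% of all Em-Ex cells, 1.17 times the product of their separate shares, and the same ratio was 1.19 to 1.29 for the other 5 pairs. Within high-Cpa3 cells of Em-Ex the ratios were 0.998 to 1.07, and in YS-Ex the highest was 1.09. The highest in each library was that of Ddc and Slc18a2. For a pair with Hdc or Tph1, seen in most of these cells, such a ratio can hardly leave 1, so shares are given too. Ddc had a UMI in 15.9% (14.4 to 17.5) of the high-Cpa3 cells of Em-Ex with Hdc and in 5.19% (2.71 to 8.90) of those without, intervals that do not overlap. In YS-Ex the shares were 12.1% (10.7 to 13.7) and 7.49% (4.15 to 12.2), which overlap.

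Of the high-Cpa3 cells, 3.66% in Em-Ex and 4.46% in YS-Ex had UMIs of all 4 genes at this depth, 28.0% and 35.5% of 3 genes, and 0.741% and 0.694% of none. In the other Em-Ex cells 69.9% had none. With Hdc and Tph1 in most high-Cpa3 cells at once, these cells had transcripts of both amine routes, and at a depth of 3000 UMIs a cell without a Ddc or Slc18a2 UMI cannot be told from a cell that lacks the transcript.

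The genes most like each member over cells were ranked by likeness. Likeness was the lower of the Pearson correlations of log-normalized levels in the 2 libraries, among 8353 genes with a UMI in at least 5% of the cells of each library. For Hdc these were Cd55 (0.49), Srgn (0.46), Cma1 (0.42), Cyp11a1 (0.42) and Lxn (0.41). Srgn encodes the serglycin core protein of granule proteoglycans and Cma1 a chymase. For Tph1 they were Fcer1g (0.42), which encodes the shared gamma chain of Fc receptors, Cpa3 (0.39), Cma1 (0.37), Cyp11a1 (0.35) and Itm2b (0.34).

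Ddc was most like 1700042O10Rik (0.29), the antisense gene inside it, and then Syngr1 (0.26), Ctla2a (0.25), Cma1 (0.25) and Serpinb1a (0.23). 1700042O10Rik stood at 25.3 CPM in Em-Ex against 26.3 in YS-Ex, and within high-Cpa3 cells at 34.6 against 27.2 CPM, the direction Ddc had there. Slc18a2 was most like Il1rl1 (0.29), the IL-33 receptor, Kit (0.26), which the sort gate selected for, Tpsb2 (0.23), a tryptase, Cyp11a1 (0.22) and Malat1 (0.22).

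Il1rl1, Kit and Malat1 also shared the direction of Slc18a2 between the libraries. Within high-Cpa3 cells Il1rl1 was 447 and 925 CPM in Em-Ex and YS-Ex and Kit 335 and 987 CPM. Tpsb2 and Cyp11a1, given below, shared that direction too. Ctsd (1618 and 977 CPM) and Cma1, both on the Slc18a2 list within high-Cpa3 cells, went toward Em-Ex. Cd55, the gene most like Hdc, went against the direction of Hdc, at 349 CPM in Em-Ex against 670 in YS-Ex. Of the other genes at the head of the lists for Hdc, Lxn (490 and 285 CPM), Ctla2a (1448 and 906 CPM), Srgn (4393 and 3847 CPM) and Cma1 (15981 and 14858 CPM) shared its direction toward Em-Ex in these cells, and Tpsb2 (6634 and 8174 CPM) and Cyp11a1 (1304 and 1321 CPM) did not.

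Within high-Cpa3 cells, where 8145 genes were ranked, the likeness of Hdc and Tph1 was -0.18, which put Tph1 at place 7969 for Hdc. Cd55 (0.44), Ctla2a (0.37), Lxn (0.36), Srgn (0.35) and Tpsb2 (0.34) led for Hdc, and Fcer1g (0.30), Itm2b (0.27), Akr1c12 (0.23), Rapsn (0.23) and Decr1 (0.22) for Tph1. Hdc and Tph1 thus had different genes at the head of their lists. For Ddc 1700042O10Rik (0.27) again came first, followed by Tpsab1, Serpinb1a, Tpsb2 and Syngr1 (0.22 to 0.21), and for Slc18a2 Il1rl1 (0.17), Cyp11a1, Tpsb2, Ctsd and Cma1 (0.14).

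Genes that supply, store and remove the amines were read as lists. Of 84 genes in 9 lists, 64 had a row and 50 reached 10 CPM in at least 1 library. Of these 50, 1 was at least 2-fold higher in Em-Ex and 5 in YS-Ex over all cells, shares near or below the 8.35% and 10.3% of all genes tested. The 6 genes named for this are Odc1 (79.8 against 26.3 CPM), the polyamine enzyme ornithine decarboxylase, in the direction of Em-Ex, and Slc7a8, Atp6v0a1, Ndst1, Ndst2 and Xylt1 in that of YS-Ex, and they were picked after their values were seen.

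Tph1 needs tetrahydrobiopterin as its cofactor. Of 7 genes of that route 6 reached 10 CPM, with a median log2 ratio of 0.51 (higher in Em-Ex) and 0 past 2-fold. Pts was 71.3 CPM in Em-Ex against 56.3 in YS-Ex, Gch1, which starts the route, 57.4 and 36.8 CPM, Qdpr, which recycles the cofactor, 49.4 and 32.0 CPM, and Spr 38.7 and 29.6 CPM. Gchfr, whose protein regulates the product of Gch1, went the other way at 27.4 and 35.5 CPM, a ratio of 0.772 (0.708 to 0.842). Within high-Cpa3 cells the median was 0.28. There Gch1 was 1.97-fold (1.82 to 2.12) higher in Em-Ex, while the ratios of Pts (0.945 to 1.09) and Gchfr (0.921 to 1.10) had intervals that include 1.

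Hdc and Ddc both need pyridoxal phosphate. Pdxk, which makes it from pyridoxal, was 44.6 CPM in Em-Ex against 51.9 in YS-Ex. Amino acid uptake was read from 5 genes, with a median log2 ratio of 0.51 (higher in Em-Ex). The 1 gene past 2-fold, Slc7a8, was higher in YS-Ex, as were 10.3% of all genes tested. The transporter of large neutral amino acids was split: Slc3a2, the shared heavy chain, was 338 and 237 CPM and the light chain Slc7a5 152 and 77.4 CPM, while the light chain Slc7a8 was 23.3 and 59.7 CPM. The latter pair kept opposite directions in high-Cpa3 cells, where Slc7a5 was 2.36-fold higher in Em-Ex and the ratio of Slc7a8 was 0.497.

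VMAT2 uses the proton gradient made by the vesicular ATPase. Of its 15 genes 14 reached 10 CPM, with a median log2 ratio of 0.03. The 4 with the most UMIs were Atp6v0e (456 and 454 CPM), Atp6v1f (375 and 361 CPM), Atp6v1g1 (373 and 347 CPM) and Atp6v0b (336 and 387 CPM). Its members went both ways. Atp6v0a1 (8.84 and 19.4 CPM), the only 1 past 2-fold, shared the direction of Slc18a2, as did Atp6v1e1 (140 and 232 CPM) and Atp6v1a (52.4 and 81.0 CPM), which were named after their values were seen.

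The granule matrix holds the amines on serglycin and its sugar chains. Of 14 genes 9 reached 10 CPM, with a median log2 ratio of -0.47 and 3 at least 2-fold higher in YS-Ex, where 10.3% of all genes were. Within high-Cpa3 cells the median was -0.23 and 1 gene was past 2-fold. Srgn was 3327 CPM in Em-Ex against 3755 in YS-Ex, but within high-Cpa3 cells it was 1.14-fold (1.13 to 1.15) higher in Em-Ex. Ndst2, whose enzyme sulfates heparin in mast cells, was 61.1 and 136 CPM, and 0.581 (0.552 to 0.611) as a ratio within high-Cpa3 cells. Ext2 was 37.8 and 26.1 CPM and Hs2st1 24.0 and 41.1 CPM.

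For release, 10 of 12 genes reached 10 CPM with a median log2 ratio of -0.16 (0.02 within high-Cpa3 cells) and 0 past 2-fold, among them Rab27b (262 and 384 CPM), Vamp8 (235 and 205 CPM), Snap23 (115 and 167 CPM) and Stxbp2 (83.3 and 79.9 CPM). Of 8 genes for breakdown and uptake 3 reached it, with a median of -0.53 (-0.25 within high-Cpa3 cells). Aldh2 was 164 and 161 CPM, Maob, whose enzyme oxidizes amines, 86.3 and 135 CPM, and the amine carrier Slc22a3 42.8 and 61.6 CPM. Of the 10 receptor genes for histamine and serotonin only Hrh4 had a row, and it was under 10 CPM. The list of other amine and vesicle transporters had Odc1 alone at 10 CPM or more.

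Clusters with low Cpa3 showed small counts of the 4 genes, which were set against their Cpa3 counts. Cluster 7, with Hoxa9, Hoxa7 and Mpo among its leading genes, held 485 Em-Ex cells with a median of 20652 UMIs. In it Hdc was 77.8 CPM, and a UMI of Hdc was seen in 49.9% of the cells. Per 100 Cpa3 UMIs there were 25.6 (23.6 to 27.7) Hdc UMIs in cluster 7, against 23.5 (23.3 to 23.7) in the high-Cpa3 clusters of the same library, and 11.2 (9.99 to 12.5) Tph1 UMIs against 10.8 (10.7 to 10.9).

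Ddc stood at 0.725 (0.454 to 1.10) per 100 Cpa3 UMIs in cluster 7 against 0.518 (0.495 to 0.542), and Slc18a2 at 1.45 (1.05 to 1.95) against 0.836 (0.806 to 0.866). For Hdc, Tph1 and Ddc these proportions overlapped, while Slc18a2 lay above its proportion in the high-Cpa3 clusters. The 18 YS-Ex cells of cluster 7 lay above as well, with 27.9 (15.3 to 48.3) Hdc UMIs against 12.2 and 24.6 (13.0 to 43.8) Tph1 UMIs against 8.68, from 17 and 15 UMIs. In Em-Ex 99 of the 776 Hdc UMIs of this cluster lay in 1 cell. The source of these counts was not tested, and they are not read as expression.

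Cluster 12, with the globin genes Hbb-bs and Hba-a2 among its leading genes, differed for Tph1. Its 24 Em-Ex cells had 44 Tph1 UMIs, 16 of them in 1 cell, in 13 cells, or 32.4 (22.5 to 45.8) per 100 Cpa3 UMIs, above the 10.8 of the high-Cpa3 clusters. Hdc stood at 15.4 (9.26 to 24.6). Cluster 11, led by Actc1, Acta2 and Dcn, differed for Ddc, with 6 UMIs in 4 of 23 Em-Ex cells, or 20.7 (7.02 to 50.7) per 100 Cpa3 UMIs against 0.518. Both rest on few cells and few UMIs.

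Cluster 10, led by S100a9, S100a8, F10, Mmp12 and Mrc1, held Hdc at 363 CPM in 39 Em-Ex cells and 70.0 CPM in 14 YS-Ex cells. In Em-Ex 101 of its 234 Hdc UMIs lay in 1 cell. Cells with Hdc but little Cpa3 were few: among cells with Cpa3 under 500 CPM, Hdc reached 500 CPM in 3 of 538 in Em-Ex and in 3 of 40 in YS-Ex. Of the basophil genes Prss34, Cd200r3 and Mcpt8, the 3 YS-Ex cells together carried 58, 13 and 0 UMIs and the 3 Em-Ex cells 0, 10 and 3. The summed level of the 7 basophil markers was 1656 CPM in high-Cpa3 cells of YS-Ex and 594 CPM in its other cells. In Em-Ex it was 1567 and 145 CPM. Of these markers, Gata2, Fcer1a and Ms4a2 were on the mast cell list as well.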

How the data were processed

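The authors deposited 1 table of UMI counts per gene and cell barcode for both libraries. Per the labels it came from bcl2fastq 2.19.1.403 and Cell Ranger 2.0.1 on mm10 (submitters' processing notes). A gene above 0 in a library had UMIs in at least 30 barcodes there, and 241 and 725 genes are listed at 0. Columns were assigned to libraries by their prefix, and 0 columns stayed unassigned. Cells with 1000 to 5000 genes and at most 5% mitochondrial UMIs were kept, and no doublet caller was run. Counts were summed per library and divided by the total UMIs (CPM). Intervals are exact Poisson, conditional binomial or Clopper-Pearson at 95% (scipy 1.17.1) and cover counting error only. The 2-fold counts used genes with at least 50 UMIs and a prior count of 0.5. Clusters used 2000 variable genes, 100 components, 20 neighbors and Leiden resolution 1 (scanpy 1.11.5, leidenalg 0.10.2). Named genes are the 4 genes, Cpa3, the 5 genes of highest likeness each, up to 4 of each list by CPM and the first genes by fold of each cluster. The genes and lists were chosen with earlier results of these data known. Some genes of the lists and clusters are not reported here. The scripts were tested on simulated data.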

Additional observations from a re-analysis of the deposited data

How the results depend on the processing

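No paired analysis was possible because there was 1 library per group, and for the same reason no replicate could be left out. Over the alternatives, 90 of 134 values stayed within the counting interval, within 0.1 for a correlation, or within 1.5-fold for a count of genes, 44 moved beyond it, and 4 changed sign (Hdc between the libraries in 2 settings and Ddc with Cpa3 in high-Cpa3 cells of each library), none of them a ratio past 2-fold. The equal weighting of clusters was added after the data had been seen. On the log2 scale (Em-Ex over YS-Ex), over all cells, Hdc was 0.03 as reported, -0.0228 with every deposited barcode, 0.00237 as a mean over cells of CPM, 0.0617 with the median ratio of genes and -0.0113 without the 50 most abundant genes, so its direction depends on the setting. In the same order Tph1 was -0.61 as reported and then -0.67, -0.39, -0.57 and -0.65, and Slc18a2 -1.13 as reported, -1.23 with every barcode and -1.03 as a mean over cells. Within high-Cpa3 cells Hdc was 0.44 as reported, 0.41 with a limit of 1000 CPM, 0.39 with 5000 CPM, 0.41 without Cpa3 and the 50 most abundant genes, 0.53 with the median ratio and 0.36 with equal weight for each cluster. Tph1 was -0.22 as reported, -0.16 with 5000 CPM, -0.24 without the abundant genes, -0.12 with the median ratio and -0.0557 with equal weights. Equal weights gave 0.43 for Ddc (0.69 as reported) and -0.67 for Slc18a2 (-0.74), and the median ratio -0.65 for Slc18a2.

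Pearson's r of log-normalized levels with Cpa3 was 0.66 for Hdc and 0.73 for Tph1 in Em-Ex and 0.30 and 0.39 in YS-Ex, where rho was 0.44, 0.56, 0.18 and 0.19. High-Cpa3 cells of Em-Ex alone gave rho of 0.00075 for Hdc, 0.23 for Tph1, -0.0053 for Ddc and 0.13 for Slc18a2. Thinning to 3000 UMIs gave 0.21 for Slc18a2 in Em-Ex and 0.037 in YS-Ex. Co-detection ratios in Em-Ex, unthinned and in high-Cpa3 cells, were 1.07 and 0.998 for Hdc and Tph1, 1.12 and 1.07 for Hdc and Ddc, and 1.10 and 1.02 for Hdc and Slc18a2, and in high-Cpa3 cells 1.05 for Tph1 and Ddc and 1.003 for Tph1 and Slc18a2. That of Ddc and Slc18a2 in YS-Ex was 0.907 at 2000 UMIs. Without correction between the libraries the log2 ratio of Hdc between cluster classes in Em-Ex was 5.11, against 4.90. With at least 500 UMIs per gene, 672 and 389 genes were past 2-fold toward YS-Ex and Em-Ex, against 1150 and 931, since fewer genes were counted. Causes of the other moves were not tested. Depth limits Ddc and Slc18a2 per cell, and 69 YS-Ex cells limit the low-Cpa3 values there.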
